A study of Mus musculus with 6 samples.

Results

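The 10 genes described here decide in the G1 phase whether a cell goes on to copy its DNA: 5 inhibitors of cyclin-dependent kinases (Cdkn1a, Cdkn1b, Cdkn2a, Cdkn2c, Cdkn2d), 3 cyclins (Ccnd2, Ccnd3, Ccne1) and 2 kinases (Cdk4, Cdk6). They were taken by name from the expression table, 10 of its 25638 genes. Of the 10, 9 passed the filter on low values (1 FPKM or more in 2 or more libraries), as did 10727 genes in all, and were tested. Cdkn2a did not, and only its levels are given.

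The cells were OT-I cells, mouse CD8+ T cells with a transgenic receptor for an ovalbumin peptide, labelled as wild type (WT). All groups received that peptide, OVA257-264, for 48 hours, so no unstimulated cells are compared. One group was cultured with vehicle, one with cells called TANs and one with cells called TAMos. TANs were sorted as CD11b+ Ly6G+ cells with low Ly6C and TAMos as CD11b+ Ly6G- cells with high Ly6C, both from spleens, not tumours, of mice bearing LLC tumours. The T cells were purified before RNA isolation. Each group had 2 libraries. The labels do not state whether these came from separate cultures or animals, so a p-value here reflects the spread between these libraries alone, and that spread may be technical. The age, sex and number of the animals and the full names behind TAN and TAMo are not stated in the labels.

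In G1, D-type cyclins activate Cdk4 and Cdk6, which phosphorylate the retinoblastoma protein. Its release of E2F transcription factors turns on the genes of cyclin E and of DNA replication, and cyclin E with Cdk2 then drives the cell into S phase. A pair of inhibitor families acts on these kinases. INK4 proteins (the Cdkn2 genes) bind Cdk4 and Cdk6 and keep D cyclins off. CIP/KIP proteins (the Cdkn1 genes) bind cyclin-kinase complexes, block Cdk2, and can also help cyclin D complexes to assemble. In T cells antigen and interleukin-2 induce Ccnd2, and p27, the product of Cdkn1b, is high in resting cells and declines when they enter the cycle.

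Levels are in FPKM, which divides the reads of a gene by its length and by the depth of the library. Levels of different genes can thus be set side by side, though this rests on gene lengths that are not given. The steps between low values corresponded to 41.7 to 45.2 M reads a library. In TAMo replicate 1, 98.3% of the low values were an even number of reads, where the other libraries had 60.3% to 63.7%, so its depth is uncertain and the changes with TAMo are also given without it. The TAMo libraries also held 1.20% and 1.32% of FPKM in mitochondrial genes, against 8.07% to 8.34% elsewhere. Their FPKM summed to 546324 and 548039, against 628328 to 630749. T cell markers (7 of 8 in the table) were well expressed in all libraries, with summed levels of 1263 to 1315 FPKM, and Cd4 did not exceed 0.156 FPKM. Single markers moved in both directions within that sum. Cd2 was at 189 and 203 FPKM with vehicle and 48.2 and 55.3 FPKM with TAMo. Cd8a was at 145 and 152 FPKM with vehicle and 94.5 and 95.1 FPKM with TAMo. Cd8b1 was slightly lower with TAMo. Cd3d was higher, at 208 and 212 FPKM with TAMo against 151 and 148 FPKM with vehicle, as were Cd3e, Cd3g and Lck. None of 12 neutrophil markers reached 1 FPKM in any library, and S100a8 and S100a9 were listed at 0. Of 12 monocyte and macrophage markers, summing to 1.99 to 3.22 FPKM with vehicle or TAN and to 6.90 and 10.6 FPKM with TAMo, Cd68 alone reached 1 FPKM with vehicle or TAN, and Cd68 and Cd14 with TAMo. Csf1r stayed at or below 0.0361 FPKM, and C1qa, C1qb and C1qc were listed at 0. The dendritic list moved with the groups, from 70.0 and 70.4 FPKM with vehicle to 55.5 and 54.1 FPKM with TAN and 45.5 and 42.9 FPKM with TAMo. H2-Ab1 and Cd74 made up nearly all of it. The part of such cells in the results below was not tested.

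With TAMos, the inhibitor gene Cdkn1a and the cyclin gene Ccnd2 rose to the highest levels of the 10, Ccne1 fell most, and Cdk4 and Cdkn2c fell while Cdk6 and Cdkn1b rose. The members, and the gene lists further below, were chosen with earlier results of these data known. Their counts beside the shares of all genes are therefore a description and no independent test. By limma with Benjamini-Hochberg adjustment over all genes tested, 4 of the 9 tested members were higher and 4 lower than with vehicle. Over all genes 45.7% were higher and 40.7% lower, so the share of members called was close to the background. With TANs, 4 of 9 members were higher (Cdkn1a, Cdkn2c, Ccnd2, Cdk6), against 9.37% of all genes tested. None was lower, against 11.0% of all genes, and none was lower at an unadjusted p under 0.05 either. With a vehicle or TAN library left out these shares of all genes were 3.03% to 3.64% and 3.42% to 4.20%, and 3 or 4 members were higher. The median change of the tested members was 0.095 on the log2 scale with TAN and 0.0059 with TAMo, beside -0.0050 and 0.057 over all genes. Between TAN and TAMo, 4 members were higher with TAN and 4 lower, where 40.6% and 46.0% of all genes were.

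**Figure D1:**
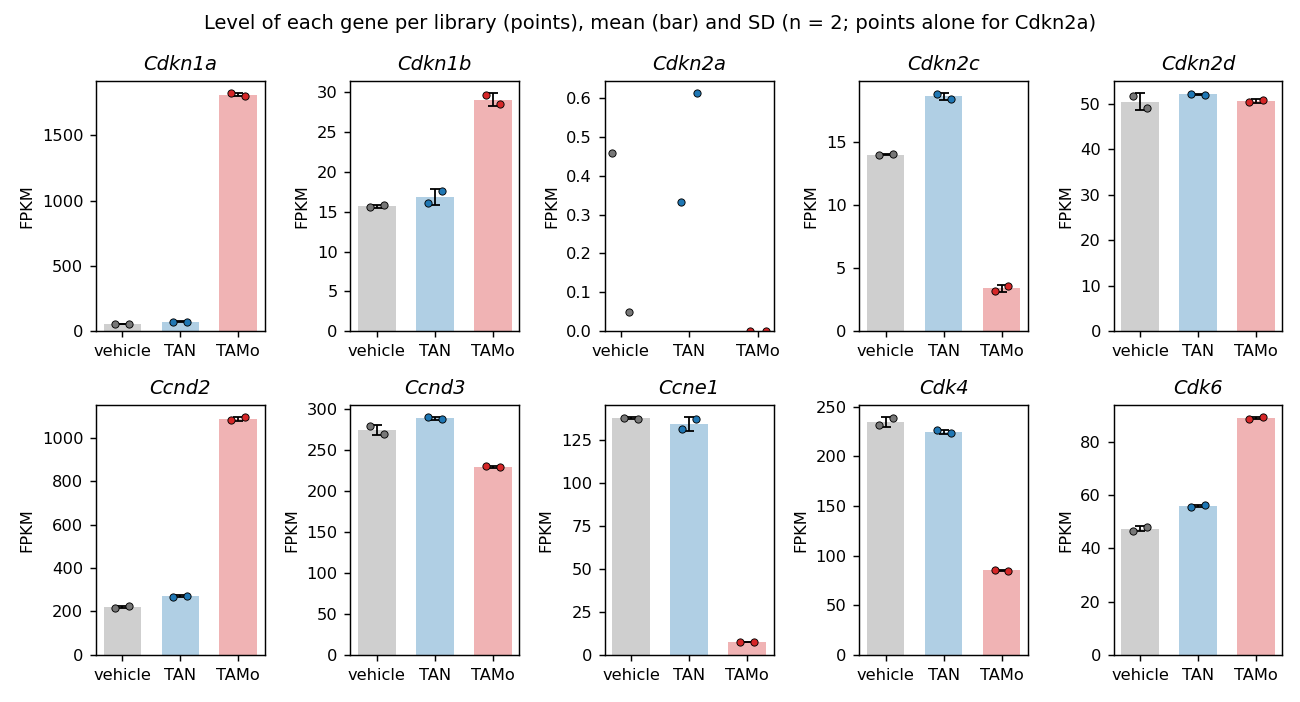
FPKM of the 10 genes in each library, 1 panel a gene with its own linear axis from 0; points are libraries, bars the group mean and whiskers the SD (n = 2), and Cdkn2a is shown as points alone. Cdkn1a and Ccnd2 stand highest with TAMo, Ccne1 and Cdk4 lowest with TAMo, and Cdkn2d at about 50 FPKM in every library.

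Cdkn1a encodes p21, the CIP/KIP inhibitor that the tumour suppressor p53 induces after DNA damage (chromosome 17, 29090976 to 29100727, plus strand, mm10). It measured 53.6 and 52.8 FPKM with vehicle, 73.9 and 71.2 FPKM with TAN, and 1820.1 and 1803 FPKM with TAMo. Both TAN libraries lay above both vehicle libraries, and both TAMo libraries lay far above all others. The mean rose 1.36-fold with TAN, by 0.44 ± 0.028 (SE) on the log2 scale (adjusted p = 0.000282). With TAMo it rose 34.1-fold, by 5.06 ± 0.028 on the log2 scale (adjusted p = 1.75e-10), the 7th largest rise of 10727 genes. Without TAMo replicate 1 the change was also 5.06. Among all tested genes its level moved from rank 2101 to rank 22, and from about 0.008% of all FPKM (0.00838% and 0.00849%) to 0.329% and 0.333%. In bulk RNA, a change in the share of cells that express a gene and a change in RNA per cell cannot be told apart.

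The region before the start of Cdkn1a is shown because it holds a recognition sequence of p53, the factor through which this gene is best known. The 250 bases come from RefSeq on GRCm38, the assembly of mm10, chr17:29090729-29090978 on the plus strand, and end next to the upstream of its annotated starts. Capitals mark the p53 response element.
Cdkn1a: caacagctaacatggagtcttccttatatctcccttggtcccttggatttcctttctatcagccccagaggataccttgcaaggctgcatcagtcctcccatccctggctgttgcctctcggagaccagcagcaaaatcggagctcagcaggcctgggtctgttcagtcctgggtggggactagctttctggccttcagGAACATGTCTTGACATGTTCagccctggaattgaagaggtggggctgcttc
The element (29090928 to 29090947) lies 51 to 32 bases before this start and 2822 bases before the downstream start. It consists of a pair of adjoining 10-base boxes with intact cores, 1 base departing from the consensus. The same rule, searched on both strands, found a match in 19 of 32851 windows of this length (0.0578%). In the other windows of members no match was found, and Ccnd2 had no window. The rule was set after this window had been seen, and a match in letters is not a measured binding site.

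Cdkn1b, the gene of p27 (chromosome 6, 134920401 to 134925513, plus strand), was the less abundant CIP/KIP gene. Its levels were 15.5 and 15.8 FPKM with vehicle, 16.1 and 17.5 FPKM with TAN, and 29.7 and 28.5 FPKM with TAMo. The TAMo libraries stood apart, whereas vehicle and TAN lay next to each other. It rose 1.86-fold with TAMo, by 0.85 ± 0.052 on the log2 scale (adjusted p = 2.32e-06), or by 0.82 without TAMo replicate 1. The TAN difference of 0.095 ± 0.052 did not pass the test (adjusted p = 0.247).

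The composition of the CIP/KIP pair followed from these values. Cdkn1a made up 77.5% and 76.96% of their summed FPKM with vehicle, 82.1% and 80.2% with TAN, and 98.4% in both TAMo libraries. Of the summed FPKM of all 10 genes, Cdkn1a took 5.11% and 5.02% with vehicle, 6.52% and 6.26% with TAN, and 53.6% and 53.2% with TAMo.

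Among the INK4 genes, Cdkn2c encodes p18, an inhibitor of Cdk4 and Cdk6 that restrains proliferation of T cells (chromosome 4, 109660876 to 109667189, minus strand). It was the member that differed from vehicle in opposite directions in the TAN and TAMo groups. Its levels were 14.0 and 14.1 FPKM with vehicle, 18.9 and 18.5 FPKM with TAN, and 3.21 and 3.62 FPKM with TAMo. No library of a group overlapped with those of another. The rise with TAN was 1.33-fold, 0.39 ± 0.061 on the log2 scale (adjusted p = 0.00696). It no longer passed when vehicle replicate 1 (adjusted p = 0.0537) or TAN replicate 1 (adjusted p = 0.0552) was left out. With TAMo Cdkn2c was 4.11-fold lower, a log2 change of -1.77 ± 0.061, or -1.70 without TAMo replicate 1 (adjusted p = 9.45e-08 with both). TAN and TAMo differed directly by 2.16 on the log2 scale, 5.46-fold (adjusted p = 3.55e-08).

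Cdkn2d, the gene of the INK4 inhibitor p19 (chromosome 9, 21288410 to 21291407, minus strand), was measured at 51.8 and 49.0 FPKM with vehicle, 52.1 and 51.9 FPKM with TAN, and 50.3 and 50.9 FPKM with TAMo. The TAMo libraries fell between the vehicle libraries. Neither the TAN difference of 0.044 ± 0.036 (adjusted p = 0.428) nor the TAMo difference of 0.0059 (adjusted p = 0.881, or 0.013 without TAMo replicate 1) passed the test. The direction of the TAMo difference depended on scaling, since with all libraries rescaled to one FPKM sum Cdkn2d was higher by 0.21 (adjusted p = 0.000874). That scaling moved the median change of all genes from 0.057 to 0.24.

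Cdkn2a (chromosome 4, 89274471 to 89294653, minus strand) gives rise to p16, an INK4 inhibitor, and through another reading frame to Arf, which stabilises p53. A value per gene cannot separate these products. It was listed at 0.460 and 0.0506 FPKM with vehicle, 0.331 and 0.613 FPKM with TAN, and at 0 in both TAMo libraries. By the steps between values these were 18, 2, 13, 24, 0 and 0 units, and the vehicle and TAN libraries overlapped. In a fit without the filter on low values no difference passed, with adjusted p = 0.516 for TAN and 0.220 for TAMo against vehicle, and 0.0505 for TAN against TAMo.

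Of the D cyclins, Ccnd2 (chromosome 6, 127125162 to 127152193, minus strand) was measured at 218 and 225 FPKM with vehicle, 268 and 273 FPKM with TAN, and 1081 and 1094 FPKM with TAMo. The 3 groups did not overlap and were ordered vehicle, TAN, TAMo. It rose 1.22-fold with TAN, by 0.29 ± 0.028 on the log2 scale (adjusted p = 0.00121). With TAMo it rose 4.91-fold, by 2.29 ± 0.028 on the log2 scale (adjusted p = 9.29e-10), or by 2.30 without TAMo replicate 1. In all tested genes this was the 229th largest rise.

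Ccnd3, the other D cyclin measured above the filter (chromosome 17, 47505051 to 47599691, plus strand), did not follow Ccnd2. It stood at 279 and 270.2 FPKM with vehicle, 291 and 288 FPKM with TAN, and 231 and 229 FPKM with TAMo. The TAMo libraries were lowest, 1.20-fold below vehicle, with a log2 change of -0.26 ± 0.027 (adjusted p = 4.83e-05), also -0.26 without TAMo replicate 1. Rescaling to one FPKM sum left a change of -0.053, and the call was lost (adjusted p = 0.097). The TAN difference of 0.075 ± 0.027 did not pass (adjusted p = 0.0918). A gene on the opposite strand, Bysl, shares 4.11% of the exon length of Ccnd3, and no strand setting is known. Bysl itself was far lower, at 26.1 FPKM with vehicle and 19.9 FPKM with TAMo on average. Opposite-strand genes also share 7.68% of the exon length of Cdkn1a (AC167363.2) and 2.63% of that of Cdk6 (Gm17590). For Ccnd2 the shares are 3.95% (Gm43126) and 3.91% (9330179D12Rik). No levels were listed for these genes under their symbols.

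The D cyclins therefore changed places. The ratio of Ccnd2 to Ccnd3 was 0.780 and 0.834 with vehicle, 0.921 and 0.947 with TAN, and 4.69 and 4.77 with TAMo. Ccnd2 made up 43.8% and 45.5% of their sum with vehicle and 82.4% and 82.7% with TAMo. Ratios within a library do not depend on how libraries are scaled, but their size rests on the gene lengths used, which are not given. The ratios are given as a description, with no test.

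Ccne1, the gene of cyclin E1 and itself a target of E2F (chromosome 7, 38097984 to 38107534, minus strand), fell most among the members. Its levels were 138.2 and 137.6 FPKM with vehicle, 131.8 and 137.6 FPKM with TAN, and 7.34 and 7.72 FPKM with TAMo. The TAN libraries reached up to those of vehicle, and the TAMo libraries lay far below both. The fall with TAMo was 18.3-fold, a log2 change of -4.03 ± 0.037 (adjusted p = 3.82e-10), or -3.99 without TAMo replicate 1, the 69th largest fall of all tested genes. With TAN the difference of -0.034 did not pass (adjusted p = 0.566).

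Cdk4, the kinase partner of D cyclins (chromosome 10, 127063534 to 127067920, plus strand), was measured at 231 and 238 FPKM with vehicle, 226 and 223 FPKM with TAN, and 85.5 and 84.9 FPKM with TAMo. It was 2.75-fold lower with TAMo, a log2 change of -1.45 ± 0.027 (adjusted p = 4.70e-09), or -1.46 without TAMo replicate 1. The TAN difference of -0.063 did not pass (adjusted p = 0.146). Tspan31, on the opposite strand, shares 19.7% of the exon length of Cdk4. It was at 25.8 to 29.0 FPKM in every library, with 27.6 and 27.5 FPKM on average for vehicle and TAMo.

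The start of Cdk4 is shown because it carries several copies of the E-box CACGTG, the site of Myc and related factors, and Myc is among the regulators counted below. The 250 bases are RefSeq on GRCm38, chr10:127063285-127063534 on the plus strand, with the E-boxes in capitals.
Cdk4: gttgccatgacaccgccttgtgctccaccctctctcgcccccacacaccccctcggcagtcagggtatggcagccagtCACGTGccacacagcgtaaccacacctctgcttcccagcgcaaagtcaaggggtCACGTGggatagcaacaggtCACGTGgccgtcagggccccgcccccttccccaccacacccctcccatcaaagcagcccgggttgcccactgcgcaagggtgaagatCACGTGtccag
There are 4 copies, at 172 to 167, 118 to 113, 98 to 93 and 11 to 6 bases before the start. At least 1 copy was found in 6.02% of 32851 windows and at least 4 in 7 of them (0.0213%). Among the other members searched Cdk6 held 1 copy, 220 to 215 bases before a start. Its level rose with TAMo while that of Cdk4 fell. Ccnd2 had no window and was not searched. The E-box reads the same on both strands. E2F letters (TTTCCCGC, TTTCGCGC, TTTGCCGC or TTTGGCGC, both strands) were found in 1.86% of windows, and among the members in that of Cdkn2a. They were not found in the windows of Ccne1, which says only that these letters are absent there.

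Cdk6, the second kinase of the D cyclins (chromosome 5, 3341485 to 3531008, plus strand), moved the other way from Cdk4 with TAMo. Its levels were 46.7 and 48.0 FPKM with vehicle, 55.6 and 56.2 FPKM with TAN, and 88.7 and 89.3 FPKM with TAMo. The groups were ordered vehicle, TAN, TAMo without overlap. Cdk6 rose 1.18-fold with TAN, by 0.24 ± 0.030 on the log2 scale (adjusted p = 0.00333). With TAMo it rose 1.88-fold, by 0.90 ± 0.030 on the log2 scale, and by 0.90 also without TAMo replicate 1 (adjusted p = 7.87e-08 with both). The ratio of Cdk6 to Cdk4 was 0.202 in both vehicle libraries, 0.246 and 0.252 with TAN, and 1.04 and 1.05 with TAMo. Cdk6 thus went from 16.8% of the summed FPKM of both kinases with vehicle to 50.9% and 51.3% with TAMo.

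**Figure D2:**
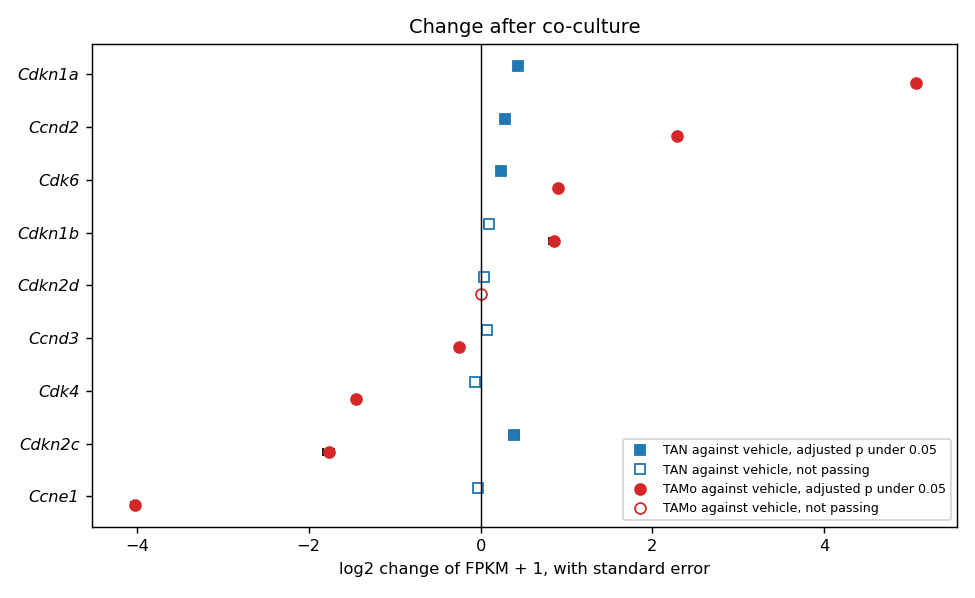
Log2 change of each tested member against vehicle with its standard error, for TAN and for TAMo; both comparisons use the same vehicle libraries. With TAMo the changes run from -4.03 for Ccne1 to 5.06 for Cdkn1a, and with TAN from -0.063 for Cdk4 to 0.44 for Cdkn1a.

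The comparisons with TAN and with TAMo share the vehicle libraries, so their values are set side by side and not correlated. Of the 4 members called higher with TAN, Cdkn1a changed by 0.44 with TAN and 5.06 with TAMo, and Ccnd2 by 0.29 and 2.29. Cdk6 changed by 0.24 and 0.90, whereas Cdkn2c changed by 0.39 and -1.77. In the direct comparison of TAN with TAMo, which needs no vehicle library, 8 of the 9 tested members differed. Of all genes tested, 40.6% were higher with TAN and 46.0% lower, so the share of members called was close to the background. The log2 difference, TAN minus TAMo, was -4.62 for Cdkn1a, -2.004 for Ccnd2, -0.76 for Cdkn1b and -0.66 for Cdk6. Ccne1 was higher with TAN by 3.99, Cdkn2c by 2.16, Cdk4 by 1.39 and Ccnd3 by 0.33. Cdkn2d differed by 0.038, which did not pass (adjusted p = 0.335). Without TAMo replicate 1 the differences of Cdkn1a and Ccne1 were -4.62 and 3.96.

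Ordered by level per length, the vehicle libraries ran Ccnd3, Cdk4, Ccnd2, Ccne1, Cdkn1a, Cdkn2d, Cdk6, Cdkn1b, Cdkn2c and Cdkn2a. No neighbours in that order overlapped between the 2 libraries, but the gap of 2.77 FPKM between Cdkn1a and Cdkn2d was little above the SD of Cdkn2d, 1.92 FPKM. With TAN, Ccnd2 passed Cdk4, Cdk6 passed Cdkn2d and Cdkn2c passed Cdkn1b. With TAMo the order became Cdkn1a, Ccnd2, Ccnd3, Cdk6, Cdk4, Cdkn2d, Cdkn1b, Ccne1, Cdkn2c and Cdkn2a. The kinases then differed by 3.76 FPKM, with SDs of 0.440 FPKM for Cdk6 and 0.473 FPKM for Cdk4. Summed over the 10 genes, the level was 1048 and 1051 FPKM with vehicle, 1133 and 1138 FPKM with TAN, and 3396 and 3390.1 FPKM with TAMo.

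Ratios of inhibitors, cyclins and kinases were formed from sums within each library. Summed CIP/KIP FPKM per summed Cdk4 and Cdk6 FPKM was 0.249 and 0.240 with vehicle, 0.319 and 0.318 with TAN, and 10.6 and 10.5 with TAMo. CIP/KIP FPKM per D cyclin FPKM was 0.139 and 0.138 with vehicle, 0.161 and 0.158 with TAN, and 1.41 and 1.38 with TAMo. INK4 FPKM per kinase FPKM moved far less, from 0.238 and 0.221 with vehicle to 0.253 and 0.254 with TAN and 0.307 and 0.313 with TAMo. The INK4 sum itself was lower with TAMo, at 53.5 and 54.5 FPKM against 66.2 and 63.2 FPKM with vehicle. The kinase sum was 174.2 FPKM in both TAMo libraries, against 278 and 286 FPKM with vehicle. D cyclins per kinase were 1.79 and 1.73 with vehicle, 1.98 and 2.01 with TAN, and 7.53 and 7.59 with TAMo. In these 4 ratios the TAN libraries lay above the vehicle libraries and the TAMo libraries above both. INK4 FPKM per D cyclin FPKM was lowest with TAMo, with 0.133 and 0.128 for vehicle, 0.128 and 0.127 for TAN, and 0.0408 and 0.0412 for TAMo. The vehicle and TAN libraries overlapped in it. On average this ratio was 3.18-fold lower with TAMo than with vehicle. These are ratios of FPKM, not counts of transcripts, and protein was not measured.

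**Figure D3:**
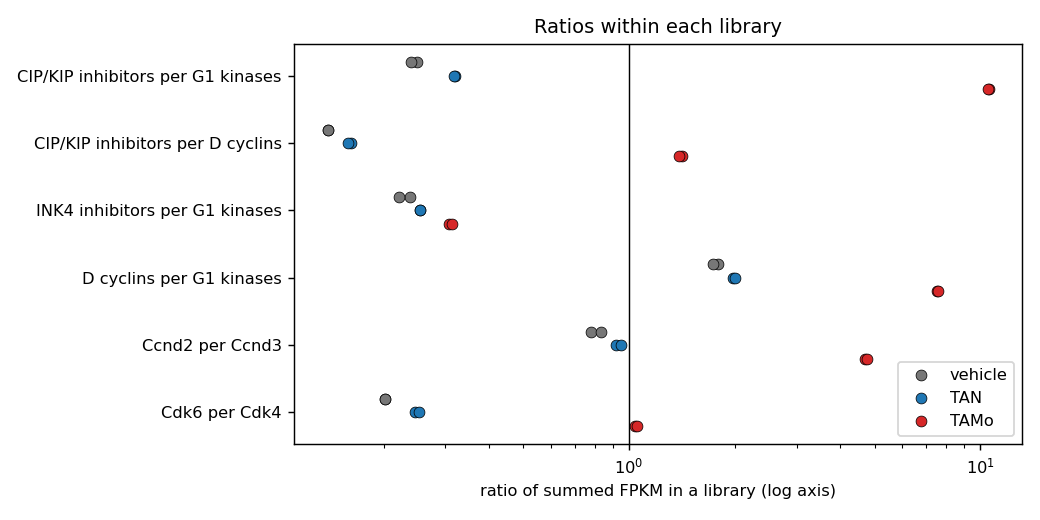
Ratios of summed FPKM within each library, on a log axis, for the 3 groups; each point is a library. CIP/KIP inhibitors per G1 kinases stand at 0.240 to 0.319 with vehicle or TAN and at 10.5 and 10.6 with TAMo.

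The pathway around the members was counted in 54 other genes of G1 and S entry, of which 51 were tested. With TAMo 19 were higher and 27 lower than with vehicle, and 5 did not pass, where 45.7% of all genes tested were higher and 40.7% lower. Their median change was -0.26 on the log2 scale, against 0.057 over all genes. With TAN 7 were higher and 4 lower, and 40 did not pass, where 9.37% of all genes were higher and 11.0% lower. Without any 1 of the vehicle or TAN libraries, 2 were higher and 2 lower. Their median was -0.0017, against -0.0050 over all genes. Between TAN and TAMo 25 were higher with TAN and 20 lower, with a median of 0.12 against -0.065. Without TAMo replicate 1, the 46 genes called with TAMo against vehicle kept their call and sign, 2 more passed (Mnat1 and Tfdp2), and the largest shift of a log2 change was 0.107, that of Mnat1.

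Close relatives of the members stood as follows. Cdkn1c and Cdkn2b, the remaining genes of the inhibitor families besides the members, stayed at 0.0358 to 0.225 FPKM and 0.0962 to 0.349 FPKM, under the filter. Ccnd1, the third D cyclin, was also under it, at 0.00597 to 0.0296 FPKM with vehicle or TAN and 0.854 and 0.905 FPKM with TAMo. Ccne2, the other cyclin E gene, was at 14.8 and 14.1 FPKM with vehicle, 14.5 and 13.7 FPKM with TAN, and 0.921 and 0.936 FPKM with TAMo, a log2 change of -3.00 with TAMo. Cdk2, the partner of cyclin E, was at 43.7 and 43.1 FPKM with vehicle, 43.7 and 44.2 FPKM with TAN, and 7.76 and 8.23 FPKM with TAMo, a log2 change of -2.30.

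Of 7 tested cyclins, kinases and activators, 6 were lower with TAMo, against 40.7% of all genes, and none was higher, nor was any higher at an unadjusted p under 0.05. Besides Ccne2 and Cdk2 these included Ccna2, the S phase cyclin, at -4.40, and Cdc25a, the phosphatase that activates Cdk2, at -2.35. With TAN 1 of the 7 passed, Cdk7 of the CDK-activating kinase, at -0.19 (adjusted p = 0.0483), a call lost in 12 of 17 alternatives. Among 13 pocket proteins and E2F factors, 9 were lower with TAMo (40.7% of all genes were), led by E2f2 at -3.95, E2f1 at -3.25 and E2f8 at -3.11. The 2 that were higher were the pocket proteins Rbl2, by 2.71, and Rb1, by 2.30. Rb1, the retinoblastoma gene, measured 12.3 and 12.8 FPKM with vehicle, 13.3 and 14.3 FPKM with TAN, and 65.0 and 66.3 FPKM with TAMo. With TAN Rbl2 alone of the 13 was called, higher by 0.25, and this was lost when any vehicle or TAN library was left out (adjusted p up to 0.0712).

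Of 14 parts of the ubiquitin ligases that degrade cyclins and inhibitors, 7 were lower and 5 higher with TAMo, which is near the shares of all genes, 40.7% and 45.7%. Skp2 and Cks1b, which together mark p27 for degradation, changed by -1.75 and -4.49. Dtl, which directs degradation of p21 in S phase, changed by -3.37. The largest rises were those of Fbxw7, which targets cyclin E, by 0.69, Skp1a by 0.40 and Cul4a by 0.32, and the other rises were those of Ddb1 by 0.17 and Cul1 by 0.11. With TAN Cks1b was higher by 0.20 and Skp1a by 0.11, and Ambra1, which targets D cyclins, changed by -0.17. All 3 calls were lost when a vehicle or TAN library was left out.

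Among 17 regulators of the inhibitor and D cyclin genes, 12 were higher and 5 lower with TAMo, where 45.7% and 40.7% of all genes were. Mdm2, the ligase of p53 and itself a p53 target, was at 31.3 and 32.9 FPKM with vehicle, 30.01 and 29.92 FPKM with TAN, and 305 and 294 FPKM with TAMo. It rose by 3.18 on the log2 scale. Trp53 itself differed by 0.17 (adjusted p = 0.00169). Foxo3, a factor that induces Cdkn1b, rose by 2.46 and Btg2, an antiproliferative p53 target, by 2.34. Ezh2, a Polycomb methyltransferase that represses Cdkn2a, changed by -1.80, Cbx7, another Polycomb part, by -0.92, and Myc by -0.53. Bmi1, also a Polycomb part, went the other way and rose by 0.97 (adjusted p = 9.04e-08). Zbtb17 and Dmtf1, the other genes that were lower, changed by -0.51 and -0.26, and the Dmtf1 call was lost with one FPKM sum (-0.066, adjusted p = 0.1894).

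With TAN 4 of these regulators were higher and 2 lower, where 9.37% and 11.0% of all genes were. Myc, which induces Ccnd2 and Cdk4 and represses Cdkn1a, stood at 423 and 425 FPKM with vehicle, 353 and 354 FPKM with TAN, and 292 and 296 FPKM with TAMo. With TAN Myc changed by -0.26 on the log2 scale (adjusted p = 0.000896), and its partner in repression Zbtb17 by -0.25 (adjusted p = 0.00625). Mdm4, a partner of Mdm2, was higher by 0.24 (adjusted p = 0.00284), Stat5b by 0.28 and Foxo1 by 0.20. The fourth, Btg1, was higher by 0.090 (adjusted p = 0.0426), a call lost when any vehicle or TAN library was left out (adjusted p up to 0.1765). The Foxo1 call was lost in 8 of 17 alternatives (adjusted p up to 0.2003), and that of Stat5b without TAN replicate 2 (adjusted p = 0.0551). The calls of Mdm4, Myc and Zbtb17 held in all 17.

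**Figure D4:**
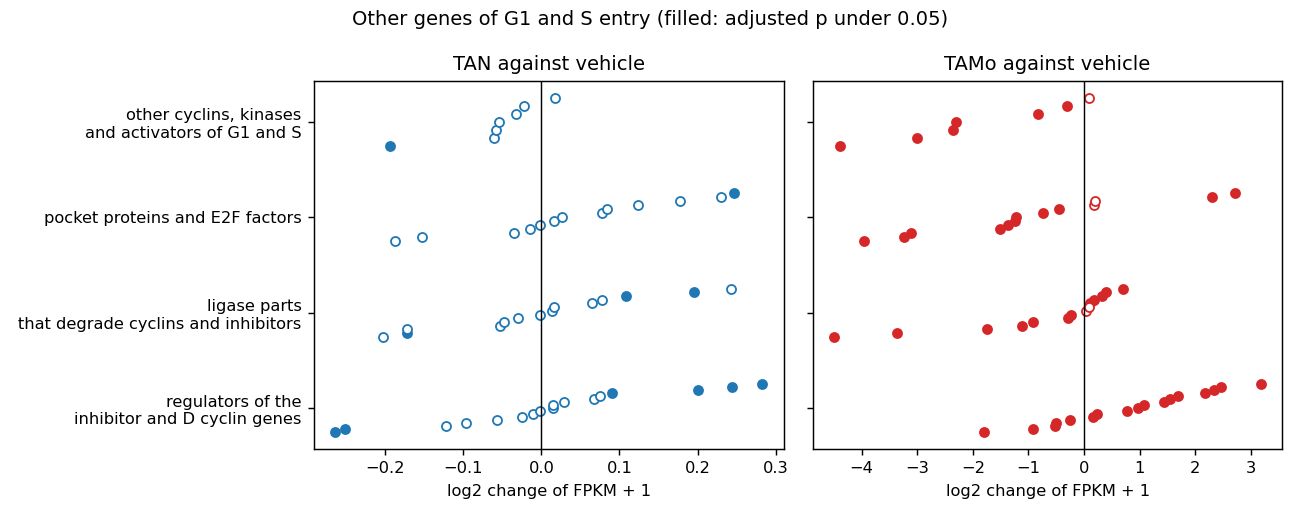
Log2 change against vehicle of the other tested genes of G1 and S entry, by list, with TAN (left) and TAMo (right, on a wider axis); each point is a gene, filled where the adjusted p was under 0.05. With TAMo 6 of 7 cyclins, kinases and activators lie below 0 and 12 of 17 regulators above it, from -4.49 for Cks1b to 3.18 for Mdm2, whereas with TAN the changes run from -0.26 for Myc to 0.28 for Stat5b.

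The genes whose profile over the 6 libraries was closest to that of Cdkn1a, by root mean square distance of centred log2 values, were Cpt1c (0.162), Zfp750 (0.184), Rgs12 (0.211), Dcxr (0.221) and Zmat3 (0.246). Zmat3 was at 3.49 and 3.16 FPKM with vehicle, 4.52 and 4.37 FPKM with TAN, and 98.7 and 94.9 FPKM with TAMo. For Ccne1 the closest were Hmgb2 (0.0284), E2f2 (0.0338), Top2a (0.0358), Mybl2 (0.0539) and Chaf1a (0.0621). Distances over so few libraries mostly reflect the gap between TAMo and the rest. Cpt1c (0.328 to 0.741 FPKM) and Zfp750 (0.0274 to 0.0414 FPKM) were under 1 FPKM with vehicle and TAN and passed the filter through the TAMo libraries (35.3 and 38.2 FPKM, and 26.0 and 27.1 FPKM). Their closeness to Cdkn1a therefore rests on the pseudocount of 1, and their ratios of FPKM differ from that of Cdkn1a. Rgs12, at 1.07 to 1.75 FPKM with vehicle and TAN, was also near the pseudocount. E2f2 was under 1 FPKM with TAMo, at 0.828 and 0.906 FPKM. Its mean FPKM fell 32.1-fold, against 18.3-fold for Ccne1.

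Genes of cycling cells give the setting of these values. Mki67, a marker of proliferating cells, was at 159 and 158 FPKM with vehicle, 160.1 and 162 FPKM with TAN, and 4.12 and 4.58 FPKM with TAMo. Pcna, the replication clamp, was at 322 and 333 FPKM with vehicle, 329 and 336 FPKM with TAN, and 31.0 and 34.1 FPKM with TAMo. With TAN, where Cdkn1a and Cdkn2c were higher, Mki67 differed by 0.023 (adjusted p = 0.755) and Ccnb1, the mitotic cyclin, by 0.14 (adjusted p = 0.0647). Ccnb1 passed in 4 of the 17 alternatives, among them without either TAMo library (adjusted p = 0.028). Mcm2, a subunit of the replicative helicase, changed by -0.14 (adjusted p = 0.0212), a call lost when any vehicle or TAN library was left out (adjusted p up to 0.1309). Cell numbers and cell cycle phases were not measured in these files.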

How the data were processed

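RNA of purified OT-I cells was sequenced in 6 libraries, 2 for each of 3 groups. The deposited values are FPKM per gene, computed by the authors. The submitters' processing notes name HISAT2 2.0.5, CASAVA, the mm10 build and featureCounts 1.5.0-p3 without saying what each did. Not given in the sources used here are annotation, strand setting and gene lengths. The unit is relative to the library, so a large change in abundant transcripts moves all values, and without strand overlapping genes cannot be separated.

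Genes at 1 FPKM or more in 2 or more libraries were tested on log2(FPKM + 1) by limma 3.58.1 in R 4.3.3. The 3 comparisons came from one model of all 6 libraries with a variance trend, which had 4.07 prior and 3 residual degrees of freedom. Each gene thus had the same variance in all 3 groups, moderated towards that of genes at similar levels. P-values of TAN against vehicle therefore also carry the spread of the TAMo libraries. Each test was two-sided, and a Benjamini-Hochberg adjusted p under 0.05 was called. A fold is the ratio of mean FPKM, with nothing added, a value after ± is a standard error for a log2 change, and log2 changes understate those of low genes. The fit was checked on simulated data.

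Members and gene lists were chosen with earlier results of these data known. Named are all members and, in each list and comparison, up to 3 genes with the largest called rise and fall, and direct relatives of members. The FPKM per library of Rb1, Mdm2, Myc, Zmat3 and single T cell markers were picked for print after their values were seen. So were the values of Trp53, Ddb1, Cul1, Btg1 and, with TAMo, Bmi1, Zbtb17 and Dmtf1. In the table Skp1 appears as Skp1a, and the T cell marker Trac was not found under that symbol.

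Replicates correlated at 0.998 to 0.999 across all genes, those at 0 included (Pearson, log2 values). No gene above 0 FPKM had the same value in both replicates of a group. In genes with 1 annotated transcript, the chi-square of 2 replicates per degree of freedom was 2.47 for vehicle, 2.04 for TAN and 10.3 for TAMo, above counting noise. Depth was read from steps between low values, 98.6% to 99.0% of which were whole reads within 0.1. Coordinates are from GENCODE mouse release 21 on GRCm38, the assembly of mm10. RefSeq windows matched 9 of 10 members, with none for Ccnd2. Pseudocount, filter, scaling, variance prior, samples in the fit, a replicate block and each left-out library were varied, 17 alternatives in all.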

Additional observations from a re-analysis of the deposited data

How the results depend on the processing

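Of 27 member differences tested, the sign changed only for Cdkn2d. Against vehicle, Cdkn2d with TAMo turned to -0.021 with equal medians and ran from -0.032 to 0.044 with a library left out, with -0.032 without vehicle replicate 2 and -0.0015 without TAMo replicate 2. With one FPKM sum it was called at 0.21, and at 0.10 with one sum outside the mitochondrial genome (adjusted p = 0.0259). For TAN against TAMo it turned to -0.16 with one FPKM sum (adjusted p = 0.00366) and -0.056 outside the mitochondrial genome. With one FPKM sum 5 members were higher and 3 lower with TAMo than with vehicle, where 53.7% and 33.7% of all genes were. Leaving out a library gave 3 to 4 members higher with TAN.

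Other G1 and S entry genes higher with TAN numbered 4 without the variance trend, and 2 to 7 with a library left out. Those lower numbered 2 to 5 with a library left out. Of all genes tested, 3.54% were higher and 3.78% lower with TAN when no filter was used. With a library left out these shares were 3.03% to 11.1% and 3.42% to 12.9%, with the low ends for vehicle and TAN libraries. Without the filter 25.8% were lower with TAMo than with vehicle, and 26.4% higher with TAN than with TAMo. Removing the filter adds low genes to the test. Leaving out a vehicle or TAN library leaves a group of the TAN comparison without a replicate. How far this moved the shares, and causes elsewhere, were not tested.

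Deviations of same-numbered libraries correlated at 0.0567, 0.0245 and 0.0078, so no strong shared effect of a replicate number was visible. Whether a number marks a shared culture or day is not stated in the labels, and so few libraries cannot settle it. With the number as a replicate block, members higher and lower numbered 4 and 0 for TAN, 4 and 4 for TAMo, and 4 and 4 for TAN against TAMo. The shares of all genes were then 8.98% and 11%, 45.7% and 40.9%, and 40.7% and 46%. Among named genes Cdk7 lost its call with TAN (adjusted p = 0.0636).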
